A study of Mus musculus with 6 samples.

Results

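Peak lists of H3K27me3 in mouse ovarian granulosa cells (GCs) were searched at 8 genes of the Sertoli cell and testis pathway. The genes were Sox9, Sox8, Dmrt1, Fgf9, Dhh, Gdnf, Cyp26b1 and Ptgds. They were chosen by name for their known roles, with earlier results of these data known. They are 8 of the 21755 protein-coding genes of the annotation. For each gene, every peak between 5 kb upstream of the gene start and the gene end (mm10) was collected in each library. GCs came from 3-week-old female ICR mice that had received pregnant mare serum gonadotropin (PMSG) 22 h before a single intraperitoneal injection of cyclophosphamide (CTX, an alkylating chemotherapy agent) at 120 mg/kg or of phosphate-buffered saline (PBS). Cells were taken 6 h after the injection, each sample pooled the GCs of 3 mice, and each group had 3 samples, named here PBS 1 to 3 and CTX 1 to 3. H3K27me3 was mapped by CUT&Tag, in which an antibody guides a transposase to chromatin that carries the mark. The animals were all PMSG-primed and CTX was given once, so the comparison covers 1 dose at 1 time.

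H3K27me3 is the histone mark that Polycomb repressive complex 2 places on genes kept off in a cell type. Granulosa and Sertoli cells descend from a common supporting cell precursor of the gonad. Sox9, which drives it toward the testis, is kept low in the ovary. SOX9, SOX8 and DMRT1 are transcription factors of the Sertoli cell programme. FGF9, DHH and GDNF are its secreted signals, while CYP26B1 degrades retinoic acid and PTGDS makes prostaglandin D2. The lists hold no RNA measure, so whether each of the genes was silent or expressed in these cells cannot be read from them.

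Of the 8 genes, 4 held a peak in at least 1 library, beside 19.6% of all protein-coding genes. Sox9, Dmrt1 and Cyp26b1 held one in all 6 libraries, beside 4.56% of all genes, and Fgf9 held one in 4. Among genes with windows of 50523 bp or more, such as Dmrt1, 36.1% had a peak in at least 1 library and 7.32% in all 6. Sox8, Dhh, Gdnf and Ptgds had no peak in any of the 6 libraries.

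The libraries listed between 2916 and 6378 separate peaks. Read depth, recovered from the fold enrichment and p-value of the summits, lay between 1118 and 1957 reads per Mb of genome, and was lowest in CTX 3 and next lowest in PBS 2. Of 12 genes of the female pathway and of GCs, 7 had no peak in any library (Foxl2, Wnt4, Fst, Esr1, Ctnnb1, Inha and Cyp19a1), Esr2 and Fshr had one in 1 PBS library each, Runx1 in 3 PBS and 1 CTX libraries, and Rspo1 and Bmp2 in all 6. Peak lists of a repressive mark cannot show which cells were present. Of 12 markers of other cell types, 6 had a peak in at least 1 library and Pdgfra, a stroma marker, in all 6. Over all protein-coding genes, 19.6% had a peak in at least 1 library and 4.56% in all 6.

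The sequences that carried the mark and those that did not are shown first. The first pair are the bases shared by the peaks of every library in which the gene was marked, and the others are the 250 bases before the start of 3 genes without a peak, taken from the RefSeq promoter table (GRCm38.p6, the build of mm10). All are written 5′ to 3′ on the strand of the gene, with CpG dinucleotides in capitals, since CpG-rich stretches are where Polycomb is known to be recruited. The Cyp26b1 stretch lies at chr6:84584007-84584206 on the minus strand, in an intron 9702 to 9901 bp after the gene start. The Fgf9 stretch lies at chr14:58074935-58075028 on the plus strand, in an intron just before an alternative first exon. The Sox8 promoter is chr17:25570687-25570936 (minus), the Dhh promoter chr15:98898541-98898790 (minus) and the Gdnf promoter chr15:7809798-7810047 (plus). The table places the start of Gdnf upstream of that in GENCODE, so that the stretch begins at -1048 bp from the GENCODE start. The table held 6 of the 8 genes, and Sox9 and Dmrt1 were not among them.
Cyp26b1 shared stretch: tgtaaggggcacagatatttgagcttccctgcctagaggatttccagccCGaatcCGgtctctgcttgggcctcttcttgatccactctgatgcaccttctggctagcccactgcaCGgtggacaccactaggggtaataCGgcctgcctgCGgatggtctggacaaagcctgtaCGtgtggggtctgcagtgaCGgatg
Fgf9 shared stretch: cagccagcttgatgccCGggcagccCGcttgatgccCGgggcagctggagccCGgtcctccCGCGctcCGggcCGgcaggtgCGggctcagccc
Sox8 promoter: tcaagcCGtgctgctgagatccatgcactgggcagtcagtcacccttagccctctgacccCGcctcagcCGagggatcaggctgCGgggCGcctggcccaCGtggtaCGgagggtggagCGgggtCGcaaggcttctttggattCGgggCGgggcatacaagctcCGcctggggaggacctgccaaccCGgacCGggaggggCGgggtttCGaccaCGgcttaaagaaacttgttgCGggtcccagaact
Dhh promoter: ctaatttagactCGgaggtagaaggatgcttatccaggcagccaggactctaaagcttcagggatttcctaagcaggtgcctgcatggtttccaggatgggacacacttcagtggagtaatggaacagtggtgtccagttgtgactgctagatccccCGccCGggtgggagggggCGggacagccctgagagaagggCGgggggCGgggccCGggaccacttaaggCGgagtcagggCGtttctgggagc
Gdnf promoter: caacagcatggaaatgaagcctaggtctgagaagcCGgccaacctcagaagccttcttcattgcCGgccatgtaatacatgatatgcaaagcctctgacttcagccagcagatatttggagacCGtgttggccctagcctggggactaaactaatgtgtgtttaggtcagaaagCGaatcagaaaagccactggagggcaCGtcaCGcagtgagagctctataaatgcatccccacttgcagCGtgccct
The Cyp26b1 stretch held 7 CpG in 200 bases and the Fgf9 stretch 9 CpG in 94 bases. The unmarked Sox8 promoter held 18 CpG in 250 bases, Dhh 9 and Gdnf 7, where the median of the 32851 promoters of the table over the same 250 bases was 6.

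**Figure D1:**
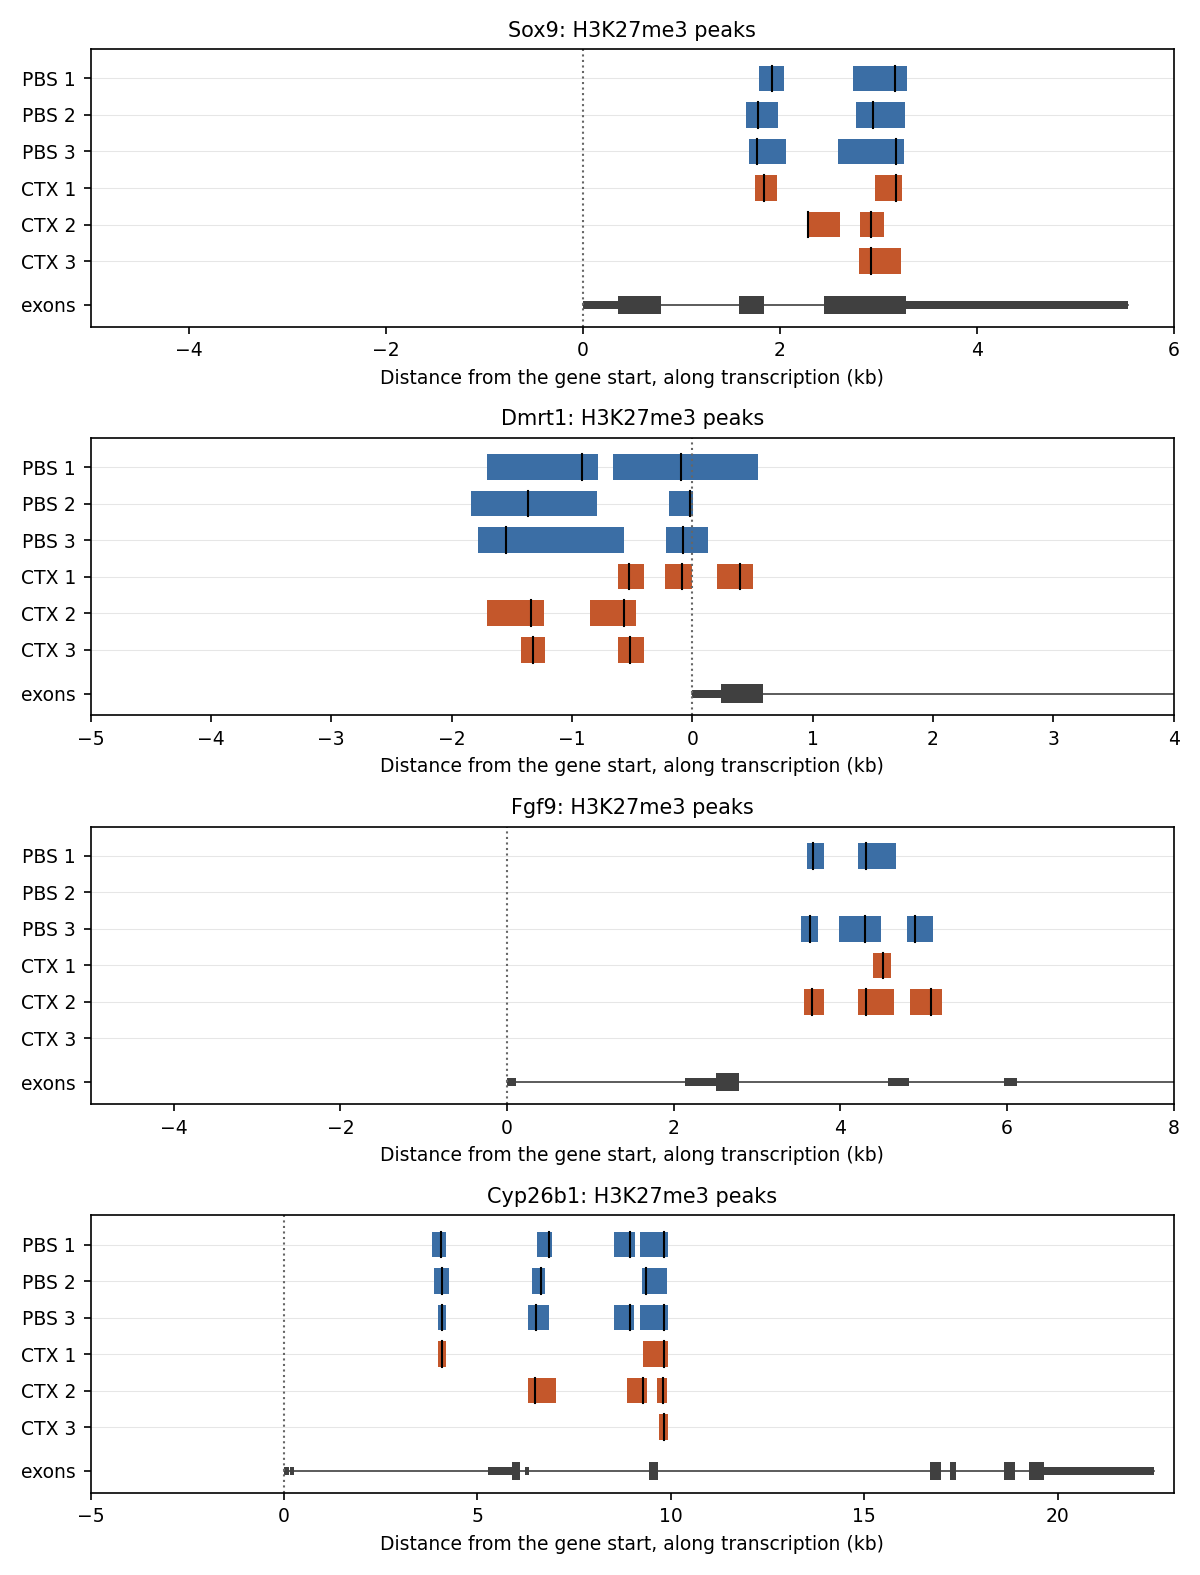
H3K27me3 peaks (bars, with the strongest summit as a black tick) in each library at the 4 marked genes, by distance in kb from the gene start along transcription; boxes at the foot are GENCODE exons, taller where coding. Peaks lay inside the gene in Sox9, Fgf9 and Cyp26b1 and across the start of Dmrt1; 2 further Dmrt1 peaks, of 1 library each, lie 60037 and 95137 bp after the start, outside the axis.

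Sox9, the central transcription factor of Sertoli cell fate (ENSMUSG00000000567, chr11:112782224-112787760, plus strand), was marked inside the gene rather than at its start. Its 11 peaks lay between 1659 and 3288 bp after the gene start, and 8 of their summits fell in coding exons and 3 in introns. A stretch of 85 bp, chr11:112785193-112785277, in the coding part of the last exon, was shared by all 6 libraries. A second stretch, 1659 to 2065 bp after the start, was covered in PBS 1, PBS 2, PBS 3 and CTX 1 and in neither CTX 2 nor CTX 3. In PBS 2, PBS 3 and CTX 1 a Sox9 peak also reached within 2000 bp of the start of BC006965, a neighbouring gene, so the mark there cannot be given to Sox9 alone. The 1700402 bp between the window and Kcnj2, the next protein-coding gene upstream, held 2 peaks in CTX 2 and none in the other libraries.

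Sox9 peaks covered 789, 818 and 1054 bp in PBS 1 to 3 and 498, 575 and 431 bp in CTX 1 to 3. Every CTX library was below every PBS library, with means of 887 ± 145 and 501 ± 72.1 bp (SD, n = 3 each), a log2 ratio of -0.82. The exact permutation test, two-sided, gave p = 0.1, which is the smallest that 3 samples against 3 allow. With Benjamini-Hochberg adjustment over the 4269 genes that had a peak in at least 1 library, the exact permutation test gave 0.70, the lowest value of any gene. No gene could therefore pass a threshold of 0.05 in this design, and 610 genes stood at the smallest unadjusted p.

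The strongest Sox9 summit had a −log10 q of 10.03, 7.34 and 6.49 in the PBS libraries. It was 4.03, 4.84 and 3.89 in CTX 1 to 3, again with no overlap (exact permutation p = 0.1, adjusted 0.861). Ranked among all peaks of its library, that summit stood above 85.3%, 81.2% and 69.2% of peaks in PBS 1 to 3 and above 56.3%, 63.2% and 61.4% in CTX 1 to 3. The percentiles were lower in every CTX library, but the lists differ in length, and by rank itself (936, 795 and 1640 in PBS 1 to 3, 1867, 1838 and 1124 in CTX 1 to 3) CTX 3 stood above PBS 3. The −log10 q also grows with read depth. Reads per Mb were 1957, 1375 and 1595 in PBS 1 to 3 and 1433, 1630 and 1118 in CTX 1 to 3.

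Dmrt1, which keeps Sertoli cells from turning into granulosa-like cells after birth (ENSMUSG00000024837, chr19:25505618-25604329, plus strand), was marked across its start. Of its 15 peaks, 12 had their summit upstream of the gene, 1 in a coding exon and 2 in introns. All but 2 lay between -1841 and +546 bp of the start. The bases from -1424 to -1236 bp of the start were covered in 5 libraries, with CTX 1 the exception. The 2 remaining peaks, each of a single library (PBS 3 and CTX 3), were 200 and 233 bp wide.

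Dmrt1 peaks covered 2126, 1247 and 1772 bp in PBS 1 to 3 and 748, 854 and 650 bp in CTX 1 to 3. The groups did not overlap, with means of 1715 ± 442 and 751 ± 102 bp and a log2 ratio of -1.19 (exact permutation p = 0.1, adjusted 0.70). The span of the upstream peak of the PBS libraries, 924 to 1218 bp wide, held smaller peaks in CTX. In CTX 2 these were a peak of 468 bp and a separate one of 386 bp, from -852 to -467 bp of the start. CTX 3 had a peak of 200 bp there. CTX 1 and CTX 3 also had a peak of 217 bp from -614 to -398 bp, which reached into the upstream peak of PBS 3 alone. No peak of CTX 1 lay further upstream than that.

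The significance of the Dmrt1 summits, which also grows with read depth, did not separate in the same way. The strongest −log10 q at Dmrt1 was 7.03, 3.20 and 6.23 in PBS 1 to 3 and 3.46, 4.80 and 6.68 in CTX 1 to 3 (exact permutation p = 0.8). The groups overlapped, and CTX 3, the shallowest library, had the second highest value. Its Dmrt1 summit stood above 86.1% of the peaks of that library, the highest such percentile of the 6, while PBS 2 had the lowest with 36.9%.

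Sox8, a relative of Sox9 that acts beside it in Sertoli cells (chr17:25565892-25570686, minus strand), had no peak in its window of 9795 bp. The nearest peak lay 67892 to 69145 bp away in 5 libraries, closest to the start of Sstr5, and 310667 bp away in CTX 3.

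**Figure D2:**
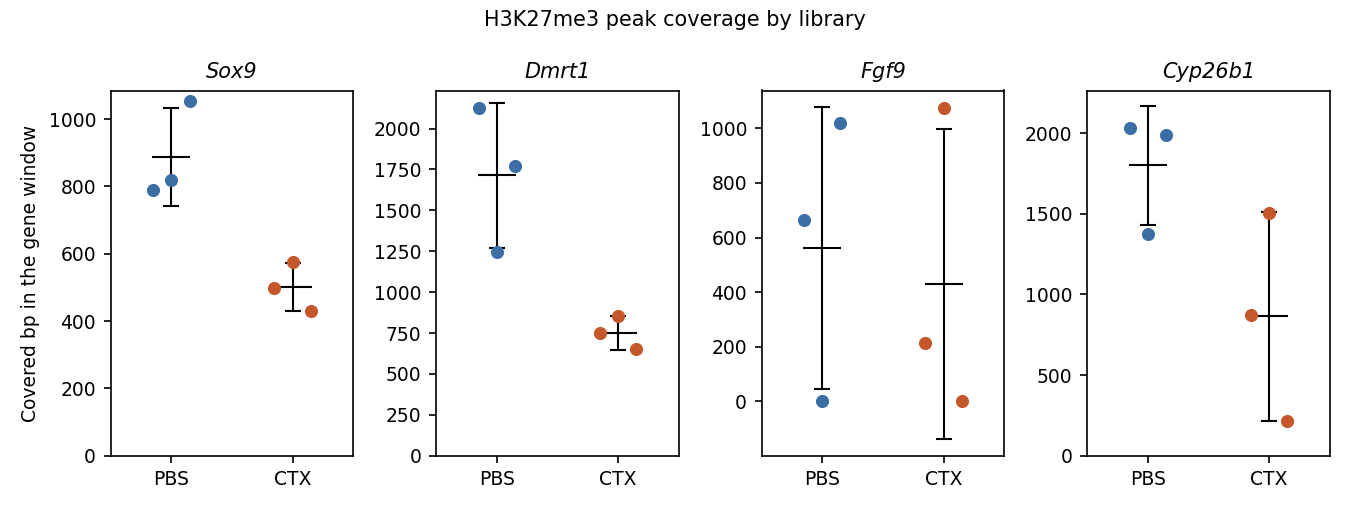
Base pairs covered by H3K27me3 peaks in the window of each marked gene (vertical axis), with 1 point per library and the mean ± SD of 3 libraries as a black line with bars. The groups do not overlap for Sox9 and Dmrt1 and overlap for Fgf9 and Cyp26b1.

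Fgf9, the growth factor that sustains Sox9 in the fetal testis (ENSMUSG00000021974, chr14:58070547-58112720, plus strand), was the only marked signal. Its 9 peaks lay 3526 to 5224 bp after the gene start, with all 9 summits in introns, and each peak came within 2000 bp of a start of 1 of the Fgf9 transcripts. They covered 664, 0 and 1019 bp in PBS 1 to 3 and 215, 1075 and 0 bp in CTX 1 to 3. The highest value thus belonged to a CTX library, the groups overlapped throughout, and the means of 561 ± 517 and 430 ± 569 bp gave an exact permutation p of 1. The 2 libraries without an Fgf9 peak, PBS 2 and CTX 3, were the 2 with the fewest reads per Mb (1375 and 1118); the part of depth in their lack of a peak was not tested. Where Fgf9 was marked, its strongest −log10 q was 7.63 and 6.66 in PBS 1 and PBS 3 and 4.16 and 4.87 in CTX 1 and CTX 2.

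Dhh, the hedgehog signal of Sertoli cells to Leydig cells (chr15:98891152-98898540, minus strand), had no peak in 12389 bp. Peaks nearest to it lay 46972 to 47161 bp away in 4 libraries and 84101 and 84192 bp away in CTX 1 and PBS 2. Its window also covers part of Rhebl1, which was then unmarked over the shared bases too. Gdnf, the factor that maintains spermatogonial stem cells (chr15:7810846-7837575, plus strand), had no peak in 31730 bp. Its nearest peak ranged from 26639 bp (CTX 2) to 1102550 bp (CTX 3) away, so that it stood in the widest unmarked surroundings of the 4 genes in 5 of 6 libraries.

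Cyp26b1, the enzyme that clears retinoic acid and so keeps fetal male germ cells out of meiosis (ENSMUSG00000063415, chr6:84571414-84593908, minus strand), had the highest group means of the 8 genes in covered bp and strongest −log10 q in both PBS and CTX. In CTX 3, Dmrt1 exceeded it in both measures and Sox9 in covered bp (431 against 214 bp). In PBS 1, Dmrt1 covered more bp than Cyp26b1. All 17 summits lay in introns, in 3 stretches, and 8 of the 17 peaks came within 2000 bp of a start of 1 of the Cyp26b1 transcripts. The stretch 8531 to 9932 bp after the gene start, which spans a coding exon, was covered in all 6 libraries and holds the 200 bp printed above. The stretch from 6296 to 7023 bp was covered in 3 PBS libraries and CTX 2, and the one from 3832 to 4256 bp in 3 PBS libraries and CTX 1. CTX 3 kept only the first of them, with a single peak of 214 bp.

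Cyp26b1 peaks covered 2034, 1377 and 1988 bp in PBS 1 to 3 and 870, 1505 and 214 bp in CTX 1 to 3. CTX 2 stood above PBS 2, so the groups overlapped, and the means of 1800 ± 367 and 863 ± 646 bp (log2 ratio -1.06) gave an exact permutation p of 0.2 and an adjusted p of 0.864. The strongest −log10 q was 16.7, 8.78 and 20.01 in PBS 1 to 3 and 6.37, 9.48 and 4.98 in CTX 1 to 3 (exact permutation p = 0.2). By rank it was peak 295, 556 and 153 of the PBS lists, and peak 901, 600 and 768 of the CTX lists, the last of 2916 peaks. It stood above 95.4%, 86.9% and 97.1% of peaks in PBS 1 to 3 and above 78.9%, 88.0% and 73.7% in CTX 1 to 3.

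Ptgds, the prostaglandin D2 synthase that feeds back on SOX9 (chr2:25466709-25470046, minus strand), had no peak in 8338 bp. The nearest peak lay between 102244 and 104011 bp away in the 6 libraries, at Phpt1 or Ajm1. A called peak needed at least 4 reads at its summit in each of the libraries, so the lack of a peak at Sox8, Dhh, Gdnf and Ptgds says that no enrichment was called at these depths, and not that the mark was absent.

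**Figure D3:**
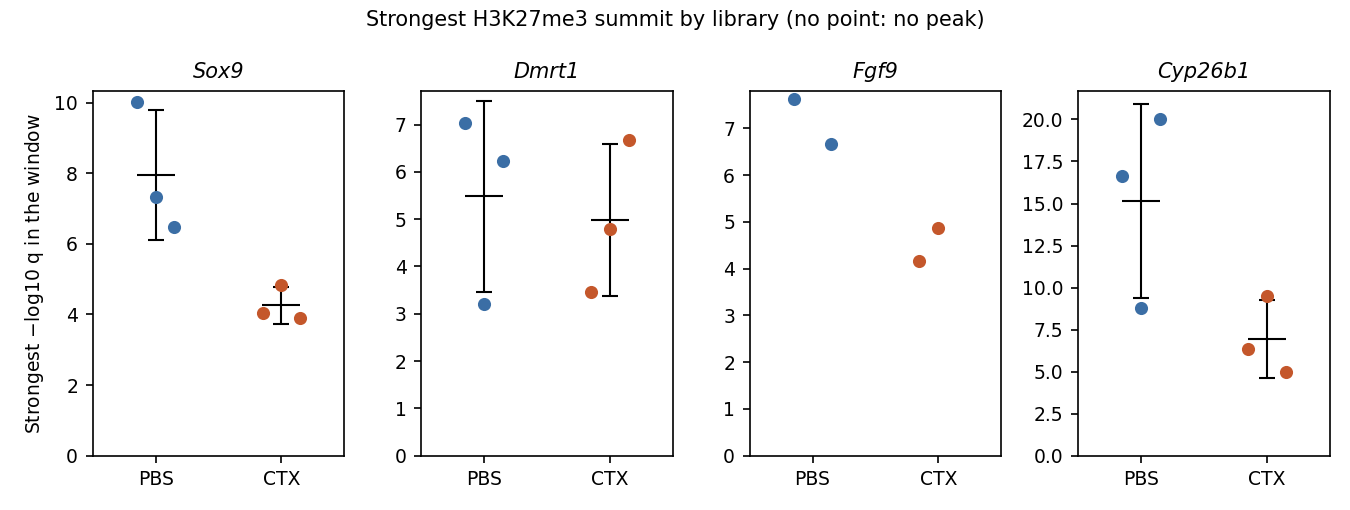
Strongest −log10 q of any H3K27me3 summit in the window of each marked gene (vertical axis, linear, from 0), with 1 point per library and the mean ± SD drawn where all 3 libraries of a group had a peak. Sox9 separates the groups, Dmrt1 and Cyp26b1 do not, and Fgf9 has no point in PBS 2 and CTX 3.

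Counted over the 8 genes, 4, 3 and 4 held a peak in PBS 1 to 3 and 4, 4 and 3 in CTX 1 to 3. The means were equal (3.67 ± 0.577 in both groups, exact permutation p = 1), so presence of the mark did not differ in number. Of the 8 genes, 0 had a peak in 3 PBS and 0 CTX libraries, where 1.73% of the 4269 genes with a peak in at least 1 library did. The summed coverage was 5613, 3442 and 5833 bp in PBS 1 to 3 and 2331, 4009 and 1295 bp in CTX 1 to 3. CTX 2 stood above PBS 2, and the means of 4963 ± 1322 and 2545 ± 1370 bp gave an exact permutation p of 0.2. As a share of all bases covered in a library, the 8 genes took 0.210 ± 0.0214% in PBS and 0.169 ± 0.0342% in CTX (exact permutation p = 0.3).

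A stricter peak threshold changed the counts by group. At a q-value of at most 1e-05, 4, 2 and 4 of the genes remained in PBS 1 to 3 and 1 in each CTX library, a difference of -2.33 genes (exact permutation p = 0.1). The gene that remained was Cyp26b1 in CTX 1 and CTX 2 and Dmrt1 in CTX 3, while Sox9 passed in 3 PBS and 0 CTX libraries, beside 3.74% of the 2111 genes with a peak at this threshold. Over all protein-coding genes, those with such a peak numbered 1594, 1024 and 1482 in PBS 1 to 3 and 851, 1112 and 489 in CTX 1 to 3, so fewer genes passed in CTX on average in the whole table too. With each library reduced to its 2916 strongest peaks, the counts returned to 4, 3 and 4 against 4, 4 and 3.

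Both Sox9 and Dmrt1 were covered less in every CTX than in every PBS library, that is 2 of the 4 genes with a peak. Over all 4269 genes with a peak, 14% showed this and 0.281% the opposite; over the 992 with a peak in all 6 libraries, 30.7% showed it. With each library reduced to its 2916 strongest peaks, Dmrt1 covered 200 bp in PBS 2 and overlapped between the groups (exact permutation p = 0.4). Sox9 stayed apart and Cyp26b1 became so, beside 12.9% of genes. Cyp26b1 then covered 1627, 1038 and 1233 bp in PBS 1 to 3 and 870, 777 and 214 bp in CTX 1 to 3 (exact permutation p = 0.1). Sox9 overlapped with peaks within 1000 bp joined, where CTX 1 reached 1496 bp, the value of PBS 1 (exact permutation p = 0.2). For the strongest −log10 q it was 1 of the 4 genes (Sox9), beside 11.3% of genes lower in every CTX library and 0.328% higher. These shares are high for the whole table in 1 direction, and the counts of the 4 genes are read beside them.

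The height of the mark was then compared after scaling for depth, in the 3 genes with a peak in all libraries; the peaks themselves were called at the depth of each library. The highest pileup, that is the number of extended reads over a summit, was scaled to 1000 reads per Mb. For Sox9 it was 19.9, 23.3 and 20.1 in PBS 1 to 3 and 14.7, 14.7 and 16.1 in CTX 1 to 3, with no overlap (log2 ratio -0.48, exact permutation p = 0.1). For Cyp26b1 it was 37.3, 34.2 and 45.8 in PBS 1 to 3 and 25.12, 29.5 and 25.045 in CTX 1 to 3, also without overlap (log2 ratio -0.56, exact permutation p = 0.1). Dmrt1 gave 20.4, 21.1 and 23.2 against 18.1, 17.8 and 24.2, with the highest value in CTX 3 (log2 ratio -0.11, exact permutation p = 0.6). Without CTX 3 the ratio was -0.26 (exact permutation p = 0.1), and without CTX 2 it was -0.03. Sox9 and Cyp26b1, 2 of the 3 genes, were thus lower in every CTX library, beside 41.2% of the 990 genes that could be scaled, of which 2.12% were higher in each.

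The background that the caller set against each summit was recovered and divided by the genome mean of the library; this measure was added after the data were seen. For each library the highest value over all summits in the window was taken, so a window with more summits had more values to choose from. The recovered backgrounds above the genome mean were whole multiples of 0.02, as reads counted over 10 kb would give. They are read here as the local density of the library itself, though whether a control was used is not given, and with a control they would not be H3K27me3 density. At Sox9 it was 22.1, 26.8 and 25.6 times the genome mean in PBS 1 to 3 and 17.3, 18.1 and 16.2 times in CTX 1 to 3. At Cyp26b1 it was 55.0, 52.4 and 59.8 times in PBS 1 to 3 and 34.3, 45.3 and 31.7 times in CTX 1 to 3. Neither gene overlapped between the groups (exact permutation p = 0.1 for each), with log2 ratios of -0.53 and -0.59. Taken at the strongest summit alone, the ratios were -0.54 for Sox9 and -0.47 for Cyp26b1 (exact permutation p = 0.1 for each). At Dmrt1 the highest background was 30.7, 35.6 and 33.7 times in PBS 1 to 3. It was 28.3, 25.5 and 35.5 times in CTX 1 to 3 (log2 ratio -0.16, exact permutation p = 0.3). The 35.5 of CTX 3 belongs to its single peak 95137 bp after the start. At the strongest summit, which lay within 2000 bp upstream of the gene start in every library, Dmrt1 had 29.5, 35.6 and 33.7 times in PBS 1 to 3 and 27.3, 24.7 and 24.2 times in CTX 1 to 3, without overlap (log2 ratio -0.37, exact permutation p = 0.1). Of the 990 genes with a peak in all 6 libraries, 84% were lower in every CTX library by the highest background in the window.

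**Figure D4:**
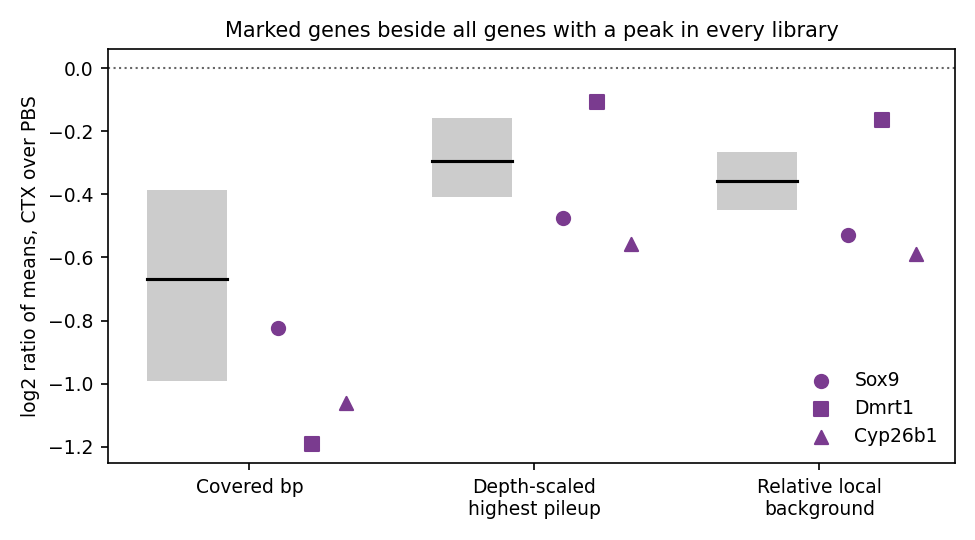
log2 ratio of group means (CTX over PBS, vertical axis) of covered bp, depth-scaled highest pileup and relative local background for Sox9, Dmrt1 and Cyp26b1, beside the median (black line) and the middle 50% (grey box) of the 990 genes with a peak in all 6 libraries. All points lie below 0, and Dmrt1 has the lowest coverage ratio and the highest pileup ratio; its local density point, -0.16, takes in a peak of CTX 3 far from the start and is -0.37 at the strongest summit.

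Beside those 990 genes, the 3 genes lay to the lower side in most measures. Their median log2 ratio was -1.06 for covered bp against -0.67 for all genes, -0.48 against -0.30 for the scaled pileup, and -0.53 against -0.36 for the local density. Dmrt1 lay nearer to 0 than the median gene in pileup and below it in coverage, and its place in local density depended on the summit taken. In level over the 6 libraries, Cyp26b1 was above 78.3% of the genes in scaled pileup and 77.1% in mean coverage. Sox9 was above 30.6% and 23.8%, and Dmrt1 above 38.4% and 69.5%, so that Cyp26b1 had the highest level of the 3 by both.

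The sequence under the peaks differed among the marked genes. The 11 Sox9 peaks and the 9 Fgf9 peaks all had a higher observed over expected CpG ratio than the median peak of their own library, with medians of 0.680 and 0.598. For Cyp26b1 this held for 13 of 17 peaks (median 0.438), and for Dmrt1 for 6 of 15 (median 0.242). The library medians lay between 0.280 and 0.351. The G+C content had medians of 64.7% in Fgf9, 63.0% in Sox9, 55.7% in Cyp26b1 and 48.9% in Dmrt1.

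CpG content around the gene starts, taken at the outermost start of each gene, did not sort the marked from the unmarked genes. Within 1 kb on either side of the start, the ratio was 0.756 for Sox9, 0.709 for Dmrt1, 0.517 for Fgf9 and 0.218 for Cyp26b1 among the marked genes. It was 0.726 for Gdnf, 0.598 for Sox8, 0.394 for Dhh and 0.139 for Ptgds among those without a peak. Gdnf, with a ratio above 84.1% of all genes, was unmarked, while Cyp26b1, above 25.9%, had a peak in all 6 libraries. The Cyp26b1 stretch covered in all 6 libraries lay 8531 to 9932 bp after the outermost start. Of its 17 peaks, 8 came within 2000 bp of a start of 1 of its transcripts, as did all 9 Fgf9 peaks. CpG content at those other starts was not measured. Among all genes, a peak in at least 1 library was held by 8.86%, 21.99%, 24.9% and 22.7% of genes in 4 groups of equal size from the lowest to the highest ratio.

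**Figure D5:**
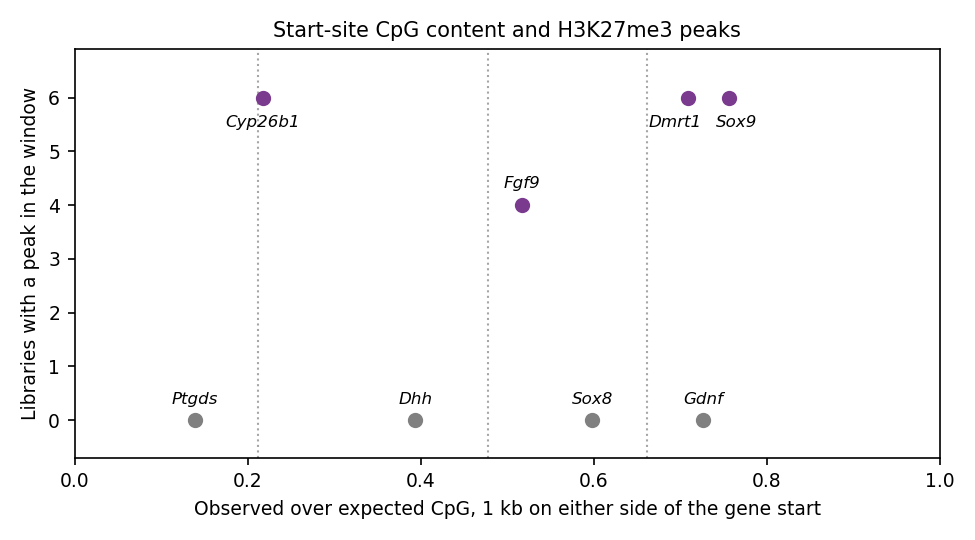
Observed over expected CpG within 1 kb on either side of the gene start (horizontal axis) and the number of libraries, of 6, with a peak in the gene window (vertical axis) for the 8 genes; dotted lines are the quartiles over all protein-coding genes. Marked and unmarked genes interleave along the axis, from Ptgds at 0.139 to Sox9 at 0.756.

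Partners of the 8 genes were also followed. A list of 15 relatives, receptors and effectors included the hedgehog receptor Ptch1, the GDNF receptor Ret and the prostaglandin D2 receptor Ptgdr. Of the 15, 13 had a peak in at least 1 library and 4 in all 6: Sox10, Fgfr2, Ret and Ptgdr. The shares over all protein-coding genes were 19.6% and 4.56%, and they were higher for genes with long windows. The window of Fgfr2, the FGF9 receptor, is 2965900 bp long in the annotation, so its peaks need not belong to the gene. Ret was covered by 944, 1243 and 1674 bp in PBS 1 to 3 and 592, 1521 and 656 bp in CTX 1 to 3. Ptgdr had 1190, 1355 and 1210 bp in PBS 1 to 3 and 888, 1154 and 949 bp in CTX 1 to 3, without overlap. Sox10, the third member of the Sox9 and Sox8 family, had 872, 1036 and 1329 bp in PBS 1 to 3 and 561, 1123 and 668 bp in CTX 1 to 3. It was marked in all 6 libraries where Sox8 was in none.

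Dhh itself was unmarked, and its downstream factor Gli1 had a peak in 3 PBS libraries (420, 397 and 595 bp) and 0 CTX libraries. Of all genes with a peak in at least 1 library, 1.73% had this pattern. Next to Dmrt1, Dmrt2 was covered by 867, 932 and 714 bp in PBS 1 to 3 and 200, 515 and 0 bp in CTX 1 to 3. Gli1, Dmrt2 and Ptgdr were lower in every CTX library, that is 3 of the 13 listed genes with a peak. Over all genes with a peak in at least 1 library, 14% were. Dmrt3, the direct neighbour of Dmrt1, held a peak in PBS 1 and PBS 3 and in no CTX library. Both other retinoic acid hydroxylase genes, Cyp26a1 and Cyp26c1, had a peak in 3 PBS and 2 CTX libraries.

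Of 12 further products of Sertoli cells, including Amh, Clu and Cldn11, only Tesc held a peak, and did so in all 6 libraries. Over all protein-coding genes, 19.6% held a peak in at least 1 library. Tesc peaks covered 1096, 707 and 805 bp in PBS 1 to 3 and 749, 626 and 253 bp in CTX 1 to 3. Among regulators of the early gonad, Lhx9 held a peak in all 6 libraries, with 1932, 665 and 2378 bp in PBS 1 to 3 and 1190, 1572 and 200 bp in CTX 1 to 3. Nr5a1, Wt1 and Gata4, which remain active in GCs, had none.

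Among the genes of the female pathway and of GCs, Rspo1, an activator of WNT signalling in the fetal ovary, had 787, 636 and 875 bp in PBS 1 to 3 and 329, 921 and 406 bp in CTX 1 to 3. Bmp2 had 1477, 863 and 874 bp in PBS 1 to 3 and 327, 1007 and 388 bp in CTX 1 to 3. For both, CTX 2 lay inside or above the PBS range, as it did for Fgf9, Cyp26b1, Sox10 and Ret. CTX 2 was the deepest of the CTX libraries, with 1630 reads per Mb, and the part of depth in these values was not tested.

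The pattern of covered bp over the 6 libraries was compared with that of every other gene by Euclidean distance on the log2(bp + 1) scale. The genes most alike to Sox9 were Hmx3 (distance 0.479), Slc26a4 (0.579) and Ankrd63 (0.594). For Dmrt1 they were C1ql3 (0.471), Grwd1 (0.527) and Sh2d3c (0.600), and for Cyp26b1 they were Ntm (0.536), Tmem132c (0.651) and Shisa7 (0.654). Ntm had 2560, 1361 and 1789 bp in PBS 1 to 3 and 974, 1910 and 200 bp in CTX 1 to 3, with the same low value in CTX 3 and high value in CTX 2 as Cyp26b1.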

How the data were processed

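The authors trimmed the CUT&Tag reads with fastp, aligned them to mm10 with BWA 0.7.12, kept unique, deduplicated alignments and called peaks in each library with MACS2 2.1.0 at a q-value of 0.05; a control is not given in the sources used here. The deposited lists give, for each summit, a score, a fold enrichment, a −log10 p-value and a −log10 q-value. No read counts were used here. Rows that overlapped or touched were merged, and covered bp were counted inside the window of each gene (GENCODE vM21). The pileup and the background of each summit were recovered from its fold and p-value (at least 99.8% of summits in each library), and the lowest background gave the depth. Groups came from the labels. Differences were tested by exact permutation of the group means (two-sided), with Benjamini-Hochberg adjustment over the 4269 genes with a peak in at least 1 library. Scripts were tested on simulated data. The genes and gene lists were chosen with earlier results of these data known. All 8 genes are named, with list genes marked in all 6 libraries or in 3 against 0, and others as examples chosen after their values were seen. Some genes of the list of gonad regulators are not reported here. Sequences came from GRCm38.p6 through RefSeq, and Python 3.11.15 with scipy 1.17.1 was used. Alternatives were stricter q-values, equal peak numbers, joined peaks, a summit rule, other windows, each library left out and a replicate block.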

Additional observations from a re-analysis of the deposited data

How the results depend on the processing

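Correlations of deviations lay between -0.041 and -0.019 for libraries of equal number and between 0.0039 and 0.034 for unequal numbers. These values cannot show whether the libraries were paired by number. With the replicate block, the number of marked genes differed by 0 (exact sign-flip p = 1) and the summed coverage by -2418 bp (exact sign-flip p = 0.5, where 0.25 is the smallest that 3 pairs allow). Leaving out 1 library at a time gave -0.333 to 0.333 for the difference in marked genes, -3178 to -1793 bp for summed coverage, 3 genes marked in all libraries, 0 specific to either group, and median log2 ratios of -1.29 to -0.73 (coverage), -0.52 to -0.40 (pileup) and -0.60 to -0.47 (local density). At a q-value of at most 1e-05, 1 gene (Sox9) was specific to PBS and 0 genes were marked in all 6 libraries; fewer peaks entered. Within 2000 bp of the gene start, 1 gene (Dmrt1) was marked in all 6 libraries, and the median log2 ratio of pileup over it was -0.11. The difference of Fgf9 in covered bp (-131) turned to 30.3 bp with equal peak numbers, 98 bp without PBS 3 and 84 bp without CTX 3, and ranged from -453.5 to 98 bp with 1 library left out. The difference of Dmrt1 in strongest −log10 q, -0.505, turned to 0.265 without PBS 1 and 0.253 without CTX 1, in a range of -1.65 to 0.265; the cause was not tested. The covered bp of Cyp26b1 differed by -937 bp, and by -612 bp without CTX 3 and -572 bp at a q-value of at most 0.01. The Cyp26b1 difference was -679 bp with equal peak numbers and -638 bp at a q-value of at most 1e-05 (exact permutation p = 0.1 for each). Sox9 differed by -386 bp, and by -658 bp with peaks within 1000 bp joined and -208 bp within 2000 bp of the gene start, where the groups were no longer apart (exact permutation p = 0.2 for each). Dmrt1 differed by -964 bp, and by -115 bp in the gene body alone, which leaves out its upstream peaks, and by -726 bp with equal peak numbers (exact permutation p = 0.4 for each). Its log2 ratio of pileup ranged from -0.26 (without CTX 3) to -0.03 (without CTX 2), and its log2 ratio of local density was -0.16, and -0.37 at the strongest summit. Of 345 alternative values, 336 did not turn direction or, for counts and medians, stayed near the reported value. A reported difference of 0 has no direction to turn, so the zeros of the 4 genes without a peak are among the 336. So is the difference in the number of marked genes, 0 as reported and -2.33 at a q-value of at most 1e-05. No p could pass a threshold of 0.05 with 3 samples against 3. Each sample pooled mice of 1 group, and whether the samples are separate cohorts is not given, so p-values measure the spread between these pools alone. Peak lists say nothing of signal below the caller's threshold.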
